A study of Mus musculus with 16 samples.

Results

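Thick ascending limb cells were taken from droplet single-cell RNA-seq of mouse kidney by a rule on raw counts of unique molecular identifiers (UMIs). A barcode was kept if it had 200 to 7000 detected genes and at most 50% of its UMIs in genes of the mitochondrial genome. Among these, a thick ascending limb cell had at least 3 UMIs of Slc12a1 and more of Slc12a1 than of Slc12a3, at least 3 UMIs of Umod, and no UMI of Cubn, Aqp2, Pecam1, Pdgfrb or Ptprc, which mark proximal tubule, collecting duct, endothelial, mesenchymal and immune cells. The rule found 2735 cells among the 94436 barcodes kept of 116439 in all, or 2.896%. Of the 2735, 115 had exactly 3 UMIs of Slc12a1 or of Umod and so lay just inside the rule, and 135 further barcodes with at least 2 UMIs of each, which met the other conditions, lay just outside it.

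The study compared BTBR ob/ob mice, which lack leptin and become obese and diabetic and are called diabetic nephropathy (DN) mice, with BTBR +/+ controls. Each of 16 libraries came from the kidneys of 1 mouse, with 2 mice for each genotype, sex and age, at 6 weeks, taken by the study as onset, and 12 weeks, taken as an early stage of disease. According to the study's methods, both genotypes also carried a tdTomato and EGFP membrane reporter in the Rosa26 locus and a Cre transgene with a podocyte promoter. The labels call the samples cells of glomeruli. According to the methods, the papilla was removed and proximal tubules were depleted in a Percoll gradient, and the preparation did not aim to enrich the thick ascending limb. P-values measure the spread between the mice of a group, except in the fits named next. With replicate number as a block, they measure the spread of DN-control differences between pairs of same-numbered libraries. In the comparison with the distal convoluted tubule, they measure how differences between the cell types within a library vary between mice.

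The thick ascending limb is the part of the loop of Henle that takes up salt without water. Its apical cotransporter NKCC2, encoded by Slc12a1, works with the potassium channel ROMK (Kcnj1), basolateral chloride channels with their subunit barttin (Bsnd) and the sodium pump, and the voltage across the epithelium then drives calcium and magnesium between the cells through claudins. The segment is also the source of uromodulin (Umod), the most abundant protein of normal urine, and a main renal source of epidermal growth factor (Egf), whose urinary level is used as a measure of functioning tubules.

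The libraries held between 10510855 and 125551519 UMIs in all barcodes and between 41 and 390 thick ascending limb cells. The median cell had between 2673 and 20335 UMIs, and between 31.6% and 39.5% of them were mitochondrial. The female libraries numbered 1, 4 in all, shared their own list of cell barcodes and were shallower than the other 12. They were treated as a separate batch, here called the chemistry batch, which is balanced over genotype and age. This batch was inferred from the barcode lists, since the labels do not say which library had which chemistry. No thick ascending limb barcode occurred in more than 1 library. Transcripts of the segment also occurred outside it, with a UMI of Umod in 20.4% to 44.6% of all kept barcodes of a library and in 55.4% to 88.9% of its distal convoluted tubule barcodes.

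The cells carried the transcripts of their segment that the rule did not use. Cldn10 had between 645 and 2066 CPM (UMI counts scaled to the same total in each library) in every library against a mean of 11 CPM in the distal convoluted tubule cells, which were chosen in the same way with the thiazide-sensitive cotransporter Slc12a3 in place of Slc12a1 and without a condition on Umod. Cldn16 had between 65.9 and 150 CPM against a mean of 0.0542 CPM there. Cldn10 was not limited to the thick ascending limb. With each cell thinned at random to 1000 UMIs, 516 of 2542 proximal tubule cells had a UMI of it. In thick ascending limb cells the share was then 57.8% ± 12.7 in control and 57.1% ± 13.1 in DN (SD, n = 8 each). Without thinning it reached 95.7% of the proximal tubule cells and 92.7% of the thick ascending limb cells of a library. Slc12a1 itself, a gene of the rule, lay between 4685 and 7600 CPM, with a median of 6164 CPM in control and 5960 CPM in DN. CPM here refer to the summed UMIs of the thick ascending limb cells of a library, scaled by the trimmed mean of M values (TMM), while the values of other cell types are unscaled CPM. Summed markers of endothelial, immune, podocyte and mesangial cells reached at most 39.4, 17.8, 13.2 and 32.8 CPM in any library, and C1qb was at 0 in all of them. The rule excluded barcodes with a UMI of Pecam1, Ptprc or Pdgfrb, so low endothelial, immune and mesangial sums were in part built in. Markers of proximal tubule, intercalated and red cells reached 2345, 861 and 451 CPM. Those of distal convoluted tubule and of principal and connecting tubule cells reached 366 and 312 CPM.

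Thick ascending limb cells made up 3.69% ± 3.005 of the kept barcodes in control (SD, n = 8) and 2.79% ± 1.66 in DN (SD, n = 8). In control the share was lowest at 0.419%, with a median of 2.37% and a highest value of 9.43%, and in DN the corresponding values were 0.834%, 3.40% and 5.25%. The groups overlapped almost fully. The difference of -0.907 percentage points had a two-sided p = 0.461 in an exact permutation test of genotype within sex and age, where the smallest possible p is 0.00154. The plot of cells, shares and depth shows the spread within each group.

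**Figure D1:**
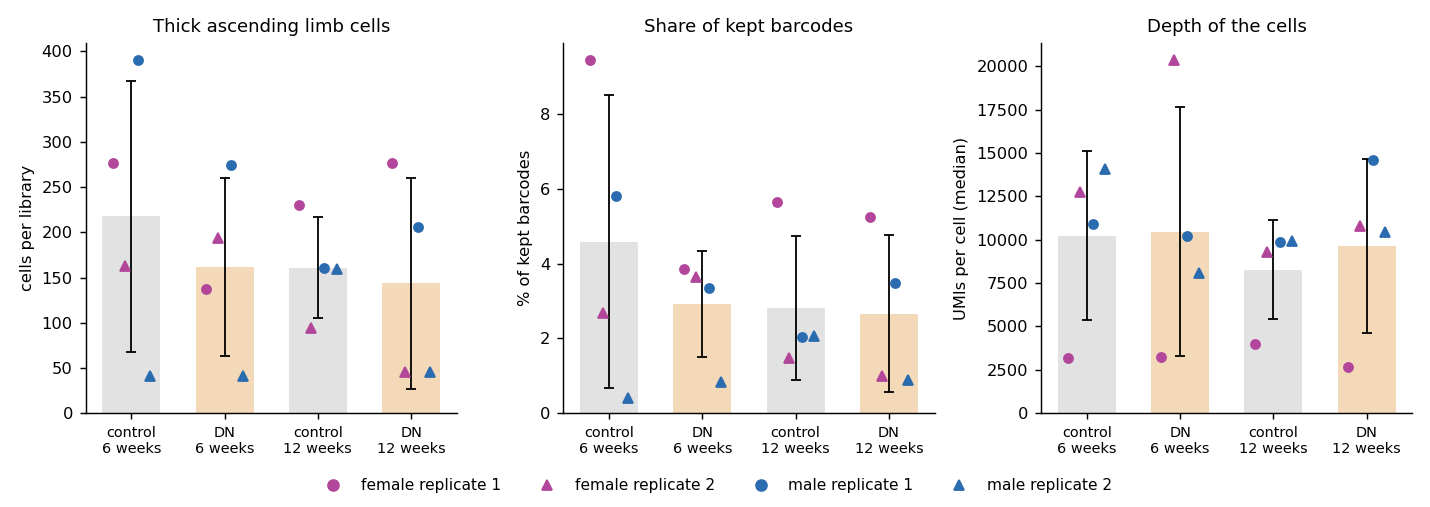
Number of thick ascending limb cells per library, their share of all kept barcodes in percent, and the median UMIs per cell, by genotype and age. Points are libraries (colour for sex, circle for replicate 1, triangle for replicate 2), bars are means and error bars SDs of 4 libraries. DN and control overlap in every panel, and the female libraries numbered 1 have the lowest depth, from 2673 to 4001 UMIs per cell.

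Counts were summed over the thick ascending limb cells of each library and tested with edgeR's quasi-likelihood test on 8412 genes, with genotype and sex within age and the chemistry batch in the model and Benjamini-Hochberg adjustment over all genes tested. At 6 weeks, 1 gene rose (0.0119% of the genes tested) and 6 fell (0.0713%) in DN at an adjusted p under 0.05, together 0.0832%. At 12 weeks, 8 rose (0.0951%) and 8 fell (0.0951%), together 0.19%. Libraries with the same sex, age and replicate number deviated together from their group means, so a fit with this number as a block was also made, and it called 106 genes at 6 weeks (1.26%), of which 55 were higher (0.654%) and 51 lower (0.606%), and 149 at 12 weeks (1.77%), of which 76 were higher (0.903%) and 73 lower (0.868%). All 7 and all 16 calls of the fit without the block were among them. The median log2 fold change over all genes was -0.01 at both ages. The calls at 12 weeks moved with single libraries, from 2 without DN female 12 weeks replicate 1 or without DN male 12 weeks replicate 1, and 3 without control male 12 weeks replicate 2, to 46 without control male 12 weeks replicate 1. The named genes that rose or fell at 12 weeks, Col5a2 excepted, each lost the call without at least 1 library and also without the chemistry term. Below, rose and fell refer to the fit without the block, and a value from the block is given only where it changes the call.

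Among secreted products, uromodulin and epidermal growth factor transcripts had negative log2 fold changes in DN at both ages, which passed only with the block. Because Umod was used to choose the cells, its level in them, 10534 to 17629 CPM in control (median 12611) and 6144 to 10682 CPM in DN (median 8498), is a description. The cells were therefore also chosen without the condition on Umod, which gave 2917 cells. This choice was made after the data were seen. In these, Umod was at 10069, 10263, 11596 and 17466 CPM in control at 6 weeks and at 5118, 7332, 8197 and 8561 CPM in DN. At 12 weeks it was at 12292, 12419, 14519 and 16999 CPM in control and at 7691, 8597, 8657 and 9953 CPM in DN. Every DN library lay below every control library, at both ages. Over both ages together the highest DN value was 9953 CPM and the lowest control value 10069 CPM. Among the genes tested in the cells chosen with Umod, DN was lower without overlap in 0.975% at 6 weeks and 1.27% at 12 weeks. Over both ages together this share was 0.0357%. The log2 fold change was -0.75 ± 0.18 (SE) at 6 weeks and -0.70 ± 0.18 at 12 weeks, and the edgeR adjusted p was 0.142 for either age without the block. With the block the adjusted p was 0.00296 and 0.00581.

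Egf, the precursor of epidermal growth factor, stood at 3232, 4555, 5633 and 7632 CPM in control and at 2015, 2534, 3437 and 4266 CPM in DN at 6 weeks. At 12 weeks the control values were 3148, 6060, 6471 and 6623 CPM and the DN values 1541, 2365, 4684 and 4872 CPM. The groups overlapped, but the DN library was the lower one in all 8 pairs of the same sex, age and replicate number. The share of all tested genes with this pattern is not given here. The log2 fold change was -0.77 ± 0.28 at both ages without the block, with an edgeR adjusted p of 0.607 at 6 weeks and 0.395 at 12 weeks. With the block it was -0.77 ± 0.12 and -0.82 ± 0.13, with adjusted p of 0.00152 and 0.000454. Each cell was also thinned to 1000 UMIs. The share with a UMI of Egf was then 84.9% ± 6.47 in control and 72.4% ± 12.6 in DN (SD, n = 8 each). At that depth 33 of 2542 proximal tubule cells, which do not make Egf, had a UMI of it. So did 1361 of 2490 distal convoluted tubule cells. Without thinning the shares were 96.9% ± 2.01 in control and 91.9% ± 4.83 in DN, against 4.37% to 30.8% of the proximal tubule cells of a library. Of the 7 secreted products tested, Egf was the only one called with the block and none was called without it. The list's median log2 fold change was 0.08 at 6 weeks and -0.03 at 12 weeks, and Spp1 (osteopontin) had a log2 fold change of 0.08 ± 0.16 and 0.25 ± 0.16.

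**Figure D2:**
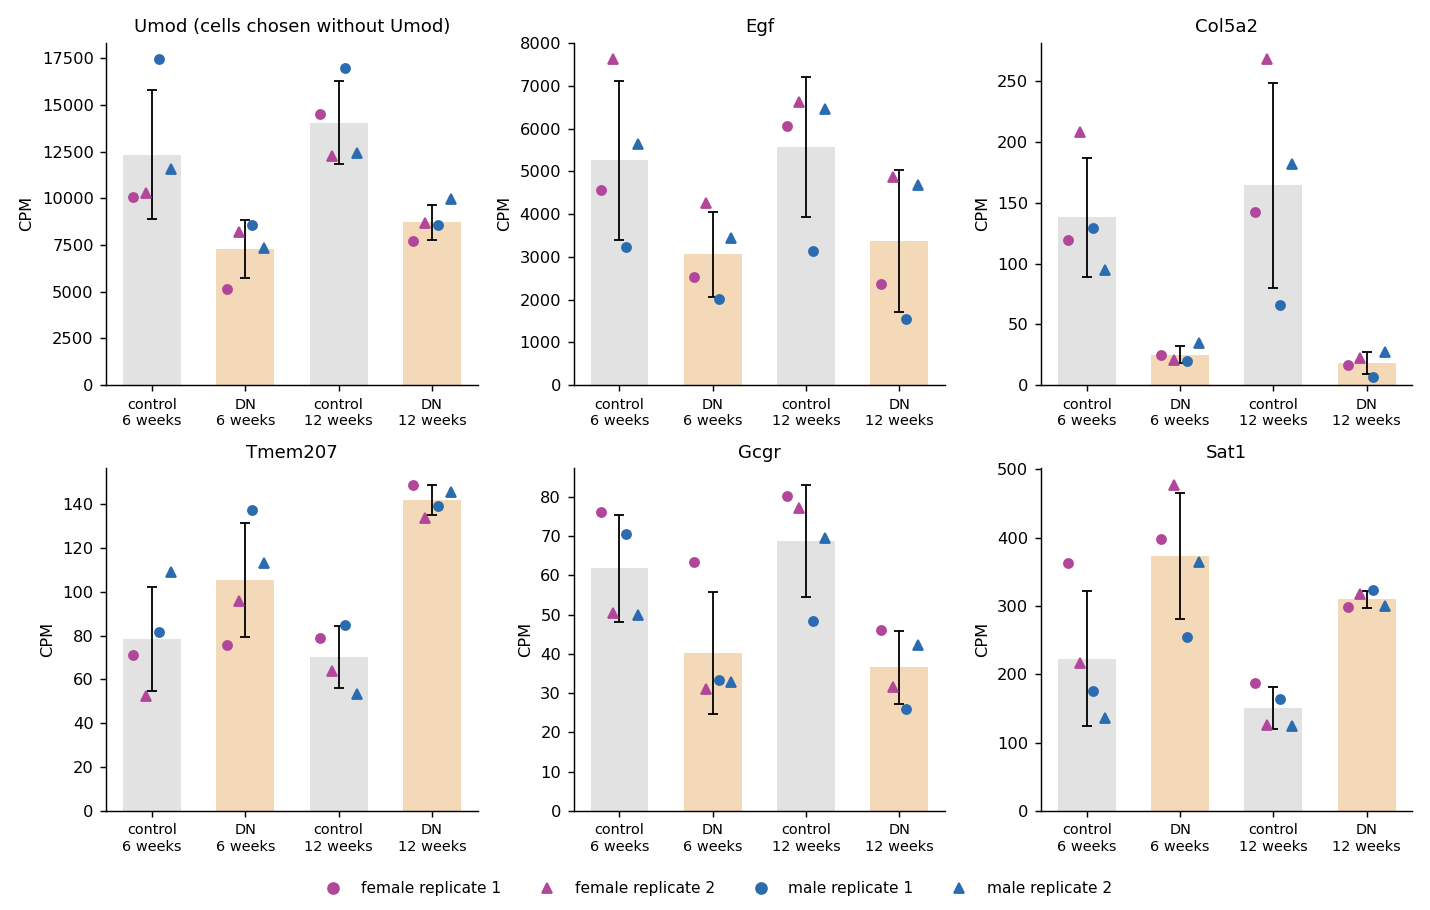
Level in CPM of Umod (cells chosen without Umod), Egf, Col5a2, Tmem207, Gcgr and Sat1 in each library, by genotype and age. Points are libraries (colour for sex, circle for replicate 1, triangle for replicate 2), bars are means and error bars SDs of 4 libraries. Umod and Col5a2 of all 8 DN libraries lie below all 8 control libraries, while the Egf groups overlap and differ pair by pair.

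The sequences before these genes are shown with that of Tmem207, the gene of the segment that moved the other way, because these 3 genes are made by this epithelium. Each line gives the 250 bases before and 50 after the start of transcription in RefSeq, build GRCm38.p6, minus strand, read 5′ to 3′, and capitals mark AGGTCA, the core letters that many nuclear receptors bind, searched on both strands. There were 2 matches before Tmem207 (chr16:26526722-26527021), 1 on each strand, and none in the windows of Umod (chr7:119479213-119479512) and Egf (chr3:129755273-129755572), and 16.3% of 32851 promoters of this length hold it. The motif was chosen after the values of these genes were seen.
Umod: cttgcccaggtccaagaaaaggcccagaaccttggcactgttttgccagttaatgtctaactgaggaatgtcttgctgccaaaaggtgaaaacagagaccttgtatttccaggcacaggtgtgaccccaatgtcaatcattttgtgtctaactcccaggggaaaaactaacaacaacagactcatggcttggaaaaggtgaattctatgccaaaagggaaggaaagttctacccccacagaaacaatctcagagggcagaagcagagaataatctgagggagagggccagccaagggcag
Egf: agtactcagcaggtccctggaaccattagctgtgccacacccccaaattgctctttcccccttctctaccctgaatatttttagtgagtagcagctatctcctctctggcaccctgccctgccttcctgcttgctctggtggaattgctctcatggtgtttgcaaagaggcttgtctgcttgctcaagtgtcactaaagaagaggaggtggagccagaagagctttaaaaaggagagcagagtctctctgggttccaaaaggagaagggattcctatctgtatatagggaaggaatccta
Tmem207: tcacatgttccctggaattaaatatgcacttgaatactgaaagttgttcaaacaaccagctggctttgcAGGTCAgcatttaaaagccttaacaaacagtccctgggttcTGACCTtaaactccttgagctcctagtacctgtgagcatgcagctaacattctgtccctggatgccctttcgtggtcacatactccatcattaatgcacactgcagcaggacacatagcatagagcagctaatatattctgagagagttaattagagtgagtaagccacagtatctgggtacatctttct

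The gene with the largest fall among those called at 12 weeks was Col5a2, the alpha 2 chain of type V collagen, a fibrillar collagen that is better known from connective tissue. Control libraries had 94.6, 119, 129 and 208 CPM at 6 weeks and DN libraries 20.2, 20.9, 24.4 and 34.9 CPM. At 12 weeks these were 65.6, 143, 182 and 268 CPM in control and 6.59, 16.4, 22.5 and 27.1 CPM in DN. The highest DN library was below the lowest control library over both ages together. The log2 fold change of Col5a2 was -2.66 ± 0.34 at the younger age (adjusted p = 0.000424) and -3.40 ± 0.36 at the older (adjusted p = 4.31e-05), and no alternative setting removed either call. The transcript was more abundant in thick ascending limb cells, at a mean of 86.4 CPM, than in distal convoluted tubule cells at 20.1 CPM or in the remaining barcodes at 9.74 CPM. Mesangial and stromal markers in the same cells summed to at most 32.8 CPM, in a DN library, and were 3.26 to 28.6 CPM in control.

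Bmp4, Fam107a and Tmem61 also fell at 12 weeks. Bmp4, a ligand of the bone morphogenetic protein family, was at 40.7, 46.3, 58.2 and 63.0 CPM in control and at 15.7, 16.4, 34.6 and 37.3 CPM in DN (log2 fold change -1.18 ± 0.23, adjusted p = 0.0333). Among cells with at most 20% mitochondrial UMIs, 279 in all, libraries with fewer than 10 such cells were left out of the fit. DN at 12 weeks then held only the libraries numbered 1, and the log2 fold change of Bmp4 was -0.23 (adjusted p = 0.98). With all thick ascending limb cells but without DN male 12 weeks replicate 1, it was -0.81 (adjusted p = 0.547). Fam107a, an actin-associated protein, was at 39.7, 52.7, 70.7 and 79.3 CPM in control and at 13.5, 20.9, 28.6 and 39.0 CPM in DN (-1.44 ± 0.28, adjusted p = 0.0321). Tmem61, a membrane protein, was at 27.2, 32.5, 33.5 and 33.8 CPM in control and at 11.9, 13.4, 15.3 and 16.5 CPM in DN (-1.20 ± 0.23, adjusted p = 0.0273). In each of these 3 genes the groups did not overlap at 12 weeks, as was true for 107 genes lower (1.27%) and 107 genes higher (1.27%) in DN, and at 6 weeks for 82 lower (0.975%) and 73 higher (0.868%). At 6 weeks their log2 fold changes were -0.91 ± 0.21, -0.78 ± 0.26 and -1.08 ± 0.23, and these passed only with the block (adjusted p = 0.00229, 0.00843 and 0.00786).

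No gene of the salt transport machinery passed without the block. Of the 12 tested apart from Slc12a1, the median log2 fold change was 0.17 and -0.04. Kcnj1, the ROMK channel through which potassium recycles to the lumen, was at 327 to 466 CPM in control and at 264 to 451 CPM in DN, with log2 fold changes of -0.18 ± 0.16 and -0.10 ± 0.16. The sodium pump subunit Atp1b1 (0.22 ± 0.15 and 0.25 ± 0.15) did not pass in either fit. Bsnd, the barttin subunit of the chloride channels, passed only at 6 weeks with the block (-0.58 ± 0.15, adjusted p = 0.0468), and Fxyd2, the gamma subunit of the sodium pump, only at 12 weeks with it (0.49 ± 0.12, adjusted p = 0.0362).

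**Figure D3:**
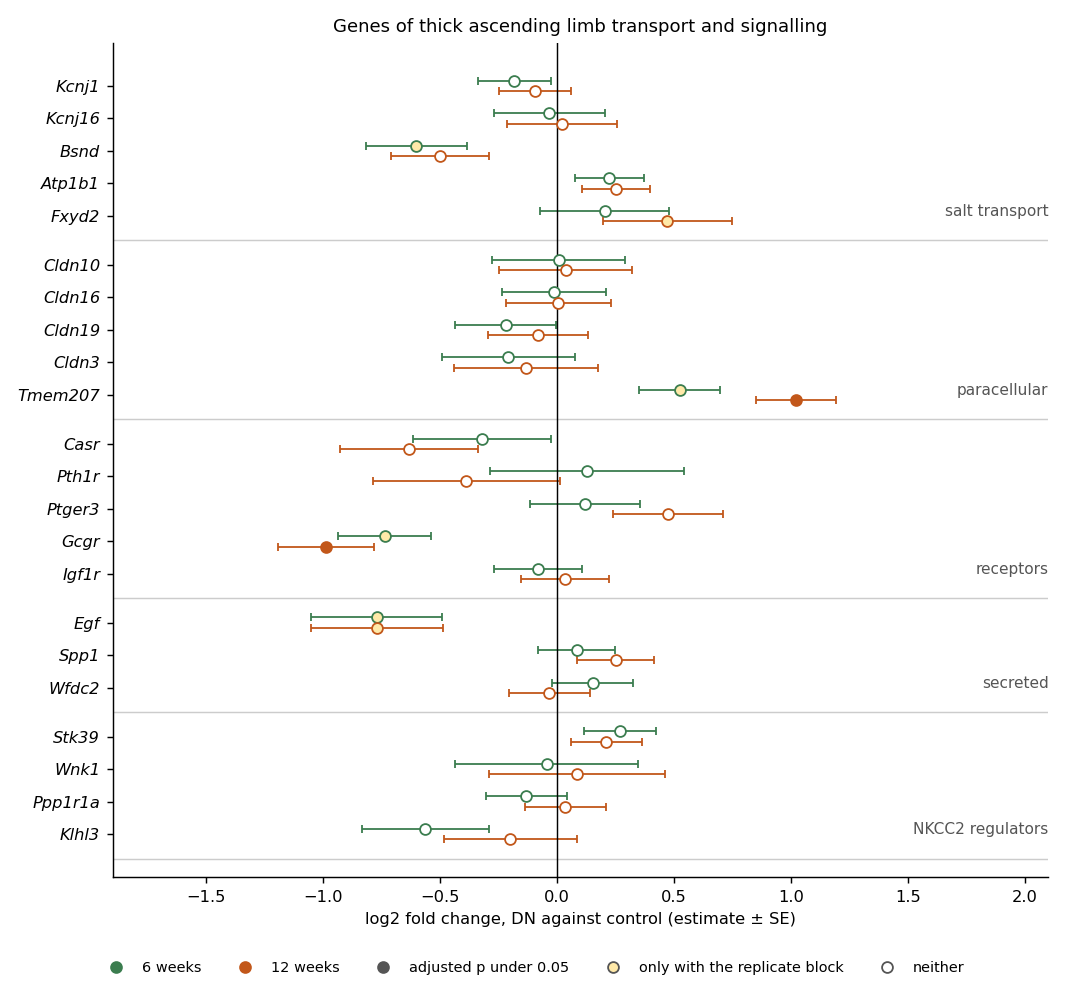
Log2 fold change of DN against control, with its standard error, for genes of salt transport, the paracellular route, receptors, secreted products and regulators of NKCC2 in thick ascending limb cells, at 6 weeks (green) and 12 weeks (orange). Filled points have an adjusted p under 0.05, pale points pass only with the replicate block and open points pass in neither fit. Tmem207 and Gcgr at 12 weeks are the only filled points.

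Of 8 paracellular genes tested, 1 rose at 12 weeks. Tmem207, a small membrane protein whose gene lies next to Cldn16, was at 53.5, 63.7, 79.0 and 84.9 CPM in control and at 134, 139, 146 and 149 CPM in DN. Its log2 fold change was 1.02 ± 0.17 (adjusted p = 0.0136), and at 6 weeks it was 0.52 ± 0.17, which passed only with the block (0.58 ± 0.14, adjusted p = 0.0468). Tmem207 was nearly absent from distal convoluted tubule cells, at a mean of 0.316 CPM. Its neighbour Cldn16, the claudin of calcium and magnesium uptake, had a log2 fold change of -0.01 ± 0.22 and 0.01 ± 0.22. Cldn19, its partner in the tight junction, had one of -0.22 ± 0.22 and -0.08 ± 0.21, and Cldn10, the sodium-selective claudin, one of 0.01 ± 0.28 and 0.04 ± 0.28. The medians of the list were -0.02 and -0.04.

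The claudins are known to be laid down as a mosaic, in which neighbouring cells hold either Cldn10 or Cldn16 with Cldn19. At 1000 UMIs per cell, 4.70% of Cldn10-positive cells and 12.6% of Cldn10-negative cells had a UMI of Cldn16, over 2693 cells, and the share was lower among Cldn10-positive cells in 14 of 16 libraries. At 2000 UMIs per cell the shares were 8.84% and 28.2%, over 2468 cells. Which cells had been neighbours is not known after dissociation. The part of cortical and medullary position in these shares was not tested. The share of cells with a UMI of Cldn16 was 8.22% ± 1.66 in control and 9.85% ± 5.95 in DN at 1000 UMIs (SD, n = 8 each), and without thinning it was 39.9% ± 15.6 and 41.7% ± 19.5. The difference of 1.63 percentage points had p = 0.500 in the exact permutation test. In cells that lack the gene, 0 of 2490 distal convoluted tubule cells and 1 of 2542 proximal tubule cells had a UMI of Cldn16 at 1000 UMIs per cell.

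Of 12 hormone and calcium receptors and their partners tested, 1 fell at 12 weeks. Gcgr, the glucagon receptor, was at 48.5, 69.4, 77.1 and 80.2 CPM in control and at 26.0, 31.6, 42.4 and 46.2 CPM in DN (log2 fold change -0.99 ± 0.21, adjusted p = 0.0469). The groups did not overlap. At 6 weeks control had 50, 50.3, 70.6 and 76.2 CPM and DN 31.0, 32.9, 33.4 and 63.5 CPM, and the log2 fold change of -0.74 ± 0.20 passed only with the block (-0.76 ± 0.15, adjusted p = 0.00817). Casr, the calcium-sensing receptor that slows salt uptake, had log2 fold changes of -0.32 ± 0.30 and -0.63 ± 0.29, Pth1r, the parathyroid hormone receptor, 0.13 ± 0.41 and -0.39 ± 0.40, and Ptger3, a prostaglandin E2 receptor, 0.12 ± 0.24 and 0.47 ± 0.23, none of which passed. The medians of the list were -0.08 and -0.27.

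The kinases, phosphatase inhibitor and adaptors that set NKCC2 activity showed no call in either fit. Of 11 tested, log2 fold changes lay between -0.56 and 0.30 at 6 weeks and between -0.24 and 0.48 at 12 weeks, with medians of 0.02 and 0.03. Ppp1r1a, a phosphatase inhibitor under cyclic AMP, was at 1254 to 1726 CPM in control and at 1018 to 2016 CPM in DN. Macula densa transcripts summed to between 20.9 and 304 CPM in a library. Pappa2, a protease of that plaque, ranged from 0 CPM in 3 libraries to 241 CPM in a DN library with 41 cells. None of the 4 macula densa genes tested passed in either fit.

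Among 17 genes of fatty acid oxidation, 1 rose at 12 weeks. Decr1, a mitochondrial enzyme for unsaturated fatty acids, was at 30.9, 35.4, 35.9 and 38.5 CPM in control and at 55.9, 72.2, 73.0 and 76.5 CPM in DN (log2 fold change 1.00 ± 0.19, adjusted p = 0.0273), and the groups did not overlap. Acadvl, the very long chain acyl-CoA dehydrogenase, passed only with the block (0.54 ± 0.13, adjusted p = 0.0257). The list's median was 0.07 at 6 weeks and 0.27 at 12 weeks. Of 18 glycolytic genes none was called, with medians of 0.14 and 0.30 and 17 above 0 at 12 weeks. Ldha (1.04 ± 0.15, adjusted p = 0.000216), Pfkp (0.59 ± 0.13, adjusted p = 0.0173) and Pkm (0.53 ± 0.11, adjusted p = 0.0145) passed at 12 weeks with the block. None of the 72 nuclear subunits of oxidative phosphorylation passed in either fit. Their median was -0.001 in the younger and 0.16 in the older mice, where 66 of the 72 were above 0.

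Sat1, Aoc1, Slc6a12 and Tspan33 rose at 12 weeks. Sat1, the rate-limiting acetyltransferase of polyamine catabolism, was at 125, 125, 164 and 187 CPM in control and at 298, 300.1, 317 and 323 CPM in DN (log2 fold change 1.06 ± 0.19, adjusted p = 0.0162), with no overlap. At 6 weeks the control values of 136, 176, 217 and 363 CPM overlapped the DN values of 255, 364, 398 and 478 CPM, and the log2 fold change of 0.80 ± 0.19 passed only with the block (0.78 ± 0.15, adjusted p = 0.00786). Aoc1, which oxidises histamine and putrescine, was at 4.72, 10.8, 13.2 and 15.4 CPM in control and at 10.5, 20.3, 61.1 and 63.4 CPM in DN at 12 weeks (1.92 ± 0.35, adjusted p = 0.0207). The DN libraries numbered 1 were the high ones, and the lowest DN library lay within the control range. Slc6a12, the transporter of the osmolyte betaine and of GABA, showed the same division. It was at 2.36, 3.75, 10.5 and 15.6 CPM in control and at 9.02, 13.6, 46.2 and 68.7 CPM in DN (2.44 ± 0.50, adjusted p = 0.0396). Without DN male 12 weeks replicate 1 the log2 fold change of Slc6a12 was 1.45 (adjusted p = 0.802). Tspan33, a tetraspanin, was at 15.6, 16.4, 24.4 and 29.2 CPM in control and at 31.3, 37.6, 50.8 and 57.6 CPM in DN (1.05 ± 0.21, adjusted p = 0.0384). At 6 weeks Slc6a12 (1.02 ± 0.23) and Tspan33 (0.77 ± 0.18) passed only with the block, at an adjusted p of 0.0268 each.

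Of 18 immediate early and dissociation stress genes, 1 rose at 12 weeks. Dusp1, a phosphatase that ends MAP kinase signalling, was at 3.93, 8.44, 18.2 and 35.9 CPM in control and at 21, 33.9, 55.5 and 93.9 CPM in DN (log2 fold change 1.77 ± 0.29, adjusted p = 0.0136). The groups overlapped, and the female libraries numbered 1, the shallow batch, were the highest of each. At 6 weeks Dusp1 passed only with the block (1.05 ± 0.17, adjusted p = 0.00152), and so did Btg2 at both ages and Egr1 and Junb at 12 weeks. The list's median was 0.42 at 6 weeks and 0.33 at 12 weeks, and 15 and 16 of the 18 were above 0. According to the methods, the samples were digested briefly at 37 °C and then made into single cells with a cold-active protease on ice. The study reported that stress genes induced by dissociation were low in its cell types. The part of dissociation in the values given here was not tested. Of 13 injury genes none was called. Their medians were 0.40 and 0.25, and Gdf15 (2.75 ± 0.44, adjusted p = 0.00152) and Lcn2 (1.42 ± 0.20, adjusted p = 0.000308) passed with the block at 6 weeks and Cdkn1a (2.07 ± 0.45, adjusted p = 0.0145) at 12 weeks. Lcn2 encodes the injury marker NGAL, Gdf15 a stress cytokine and Cdkn1a the cell cycle inhibitor p21. In the clock list of 9 genes, Nr1d1 was lower with the block at both ages (-0.76 ± 0.17, adjusted p = 0.0268, and -0.95 ± 0.18, adjusted p = 0.00618) and Dbp at 12 weeks (-1.96 ± 0.40, adjusted p = 0.00868).

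The unfolded protein response (20 genes), the NRF2 antioxidant response (10), inflammation and antigen presentation (7), magnesium handling (8) and the 13 mitochondrial subunits of oxidative phosphorylation had no call without the block. Their median log2 fold changes were 0.07, 0.02, 0.11, -0.14 and -0.08 at 6 weeks and 0.17, 0.11, -0.002, -0.10 and -0.06 at 12 weeks. With the block, Dnajb9 and Ephx1 were higher at 6 weeks and Gsr, Ifit3 and Nfkbia at 12 weeks, beside Egf and Fxyd2 of the magnesium list.

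Several calls were in genes whose level was far higher outside the thick ascending limb cells. Kap, a male-dominated protein of the proximal tubule, fell at 6 weeks (log2 fold change -2.93 ± 0.51, adjusted p = 0.0154), and without DN male 6 weeks replicate 1 its log2 fold change was -2.23 (adjusted p = 0.0975). Control males of that age had 977 and 1985 CPM, DN males 50.3 and 216 CPM and the females of both genotypes and ages at most 55.1 CPM, so the largest differences in CPM were among males. Kap had a mean of 4915 CPM in the remaining barcodes. Ugt2b38, a glucuronosyltransferase, fell at 6 weeks from 2.78, 11.4, 33.9 and 44.0 CPM to 0, 0.246, 4.77 and 6.17 CPM (-3.10 ± 0.34, adjusted p = 7.02e-05), with a mean of 174 CPM in the remaining barcodes. The 10 proximal tubule markers of the list other than Cubn summed to 196 to 2345 CPM in control and 110 to 444 CPM in DN at 6 weeks, and to 288 to 1129 CPM and 245 to 854 CPM at 12 weeks. All 8 of them tested were below 0 in the younger mice, where the list's median was -0.83, and with the block Kap, Lrp2, Miox and Ttc36 were lower. At 12 weeks the median was -0.36, and with the block Kap was lower (-1.71 ± 0.41, adjusted p = 0.0282). Their part in the calls of Kap and Ugt2b38 was not tested.

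At 12 weeks Fxyd4, an ion pump regulator of collecting duct principal cells, fell from 18.2, 26.0, 36.1 and 37.1 CPM to 4.08, 5.08, 6.01 and 10.4 CPM (-2.37 ± 0.41, adjusted p = 0.0156), and its mean was 856 CPM in the remaining barcodes. The 6 principal and connecting tubule markers other than Aqp2 summed to 95.9 to 215 CPM in control and 36.4 to 112 CPM in DN at that age, with a median log2 fold change of -1.63 over the 4 tested, and Hsd11b2 was lower with the block. Their part in the call was not tested. Markers of intercalated cells summed to between 46.2 and 861 CPM, and none of the 5 tested was called. Those of red cells summed to at most 451 CPM, in control male 12 weeks replicate 1, and none of them was tested.

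Further calls lay outside the rule for named genes and were chosen after their values were seen. In the younger mice Kif23, a kinesin of cell division, rose from 0, 2.54, 4.16 and 4.66 CPM to 12.8, 17.1, 18.2 and 18.5 CPM (2.05 ± 0.37, adjusted p = 0.019), and Keg1 (-2.17 ± 0.38, adjusted p = 0.0154) and 1500015O10Rik (-2.01 ± 0.34, adjusted p = 0.0149) fell. At 12 weeks Mef2c (-1.93 ± 0.39, adjusted p = 0.0396) fell and Tnfrsf12a, the TWEAK receptor, rose (1.55 ± 0.30, adjusted p = 0.0312). The transcript 1110019B22Rik fell at both ages (-1.22 ± 0.19, adjusted p = 0.00793, and -1.52 ± 0.20, adjusted p = 0.00102), which besides Col5a2 made it the only gene called at both. With the block, Mef2c (adjusted p = 0.00838) and Tnfrsf12a (adjusted p = 0.00887) passed at 6 weeks too, and Kif23 and 1500015O10Rik at 12 weeks (adjusted p = 0.0275 each).

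Over both ages together, 3 genes were lower in all 8 DN than in all 8 control libraries (0.0357% of genes tested) and 4 were higher in all (0.0476%). The lower ones were Col5a2, Nedd9 and P3h2, which hydroxylates proline in collagen. P3h2 had 135 to 156 CPM in control and 91.5 to 131 CPM in DN, and it passed at 12 weeks with the block (-0.49 ± 0.12, adjusted p = 0.0275). The higher ones were Kif23, Plaa, Tcirg1 and Tspan33, and Tcirg1, a subunit of the vesicular proton pump, had 1.79 to 7.29 CPM in control and 7.71 to 16.9 CPM in DN.

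For the DN effect itself no difference by age or sex passed at an adjusted p under 0.05. With 0 calls for the effect at 12 against 6 weeks in edgeR, 144 genes had an unadjusted p under 0.05 and DESeq2 called 2, and with 0 calls for the effect in males against females, 164 had one. Between 6 and 12 weeks 0 genes were called in control (213 at an unadjusted p under 0.05 and 7 by DESeq2). In DN, Fbp1 alone (0.0119% of genes tested) rose with age (log2 fold change 1.52 ± 0.24, adjusted p = 0.0293), from 4.68, 12.2, 13.6 and 20.6 CPM to 15.0, 36.4, 37.2 and 37.3 CPM. Fbp1 encodes the gluconeogenic fructose-1,6-bisphosphatase, had a mean of 339 CPM in the remaining barcodes, and its call did not survive 15 of 27 alternative settings. With 1 UMI of each marker of other lineages tolerated, its log2 fold change was 0.45. The 8 proximal tubule markers tested were all above 0 with age in DN, at a median log2 fold change of 1.03, and their part in the call of Fbp1 was not tested.

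Between the 8 male and 8 female libraries, 39 genes were higher (0.464%) and 18 lower (0.214%) in males, together 0.678% of genes tested. Xist (581 to 845 CPM in females and at most 0.469 CPM in males) and the Y-linked Ddx3y (26.8 to 45.2 CPM in males and 0 CPM in all females) separated every library as labelled. The X-linked genes Kdm6a, which escapes X inactivation, and Eif2s3x were lower in males by 1.07 ± 0.17 and 1.02 ± 0.18 on the log2 scale. Among autosomal genes lower in males were Cwh43 (-1.05 ± 0.19), Atxn2l (-0.84 ± 0.16) and Stat3, a transcription factor of cytokine signalling (-0.73 ± 0.16). Several of the genes higher in males are enzymes or transporters of the proximal tubule, such as Kap (4.41 ± 0.47), Acsm2 (2.57 ± 0.33), Cyp4b1 (3.56 ± 0.57), Slc34a1 (1.71 ± 0.26) and Acy3 (1.79 ± 0.33). Proximal tubule markers summed to 281 to 2345 CPM in males and 110 to 413 CPM in females, and their part in these calls was not tested.

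The distal convoluted tubule follows the thick ascending limb along the nephron, and the DN effect in the 2 segments was compared within libraries on 10137 genes, with 2573 distal convoluted tubule cells. At each age 2 genes differed between the segments at an adjusted p under 0.05 (0.0197%), 1 with a higher effect (0.00986%) and 1 with a lower effect (0.00986%) in the thick ascending limb, and with the block 42 did at 6 weeks (0.414%) and 48 at 12 weeks (0.474%). Arrdc3, an arrestin-domain protein that turns over adrenergic receptors, had a log2 fold change at 12 weeks of 0.86 ± 0.26 in thick ascending limb and -0.43 ± 0.25 in distal convoluted tubule cells, and the difference was 1.304 ± 0.20 (adjusted p = 0.0052). For 1110019B22Rik at 12 weeks the difference was -1.44 ± 0.23 (adjusted p = 0.0052). At 6 weeks Tmem116 differed by -0.96 ± 0.16 (adjusted p = 0.0189), with -0.46 ± 0.16 in the thick ascending limb and 0.50 ± 0.16 in the distal convoluted tubule, and Pde10a, a cyclic nucleotide phosphodiesterase, by 2.70 ± 0.47 (adjusted p = 0.0189).

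Col5a2 fell in both segments, by 2.12 ± 0.28 at 6 weeks (adjusted p = 0.00141) and 2.26 ± 0.26 at 12 weeks (adjusted p = 0.000148) in the distal convoluted tubule, and the difference between segments did not pass (-0.70 ± 0.48 and -1.13 ± 0.53). At 12 weeks Decr1 (0.77 ± 0.14, adjusted p = 0.0161) and Dusp1 (1.45 ± 0.24, adjusted p = 0.0109) rose and Fxyd4 fell (-1.91 ± 0.33, adjusted p = 0.0124) there too. Egf had a log2 fold change of -0.28 ± 0.29 and -0.21 ± 0.29 in the distal convoluted tubule, and the difference between segments of -0.56 ± 0.35 and -0.53 ± 0.35 did not pass. Fam107a at 12 weeks had 0.36 ± 0.24 there, and its difference of -1.74 ± 0.34 had an adjusted p of 0.0501.

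**Figure D4:**
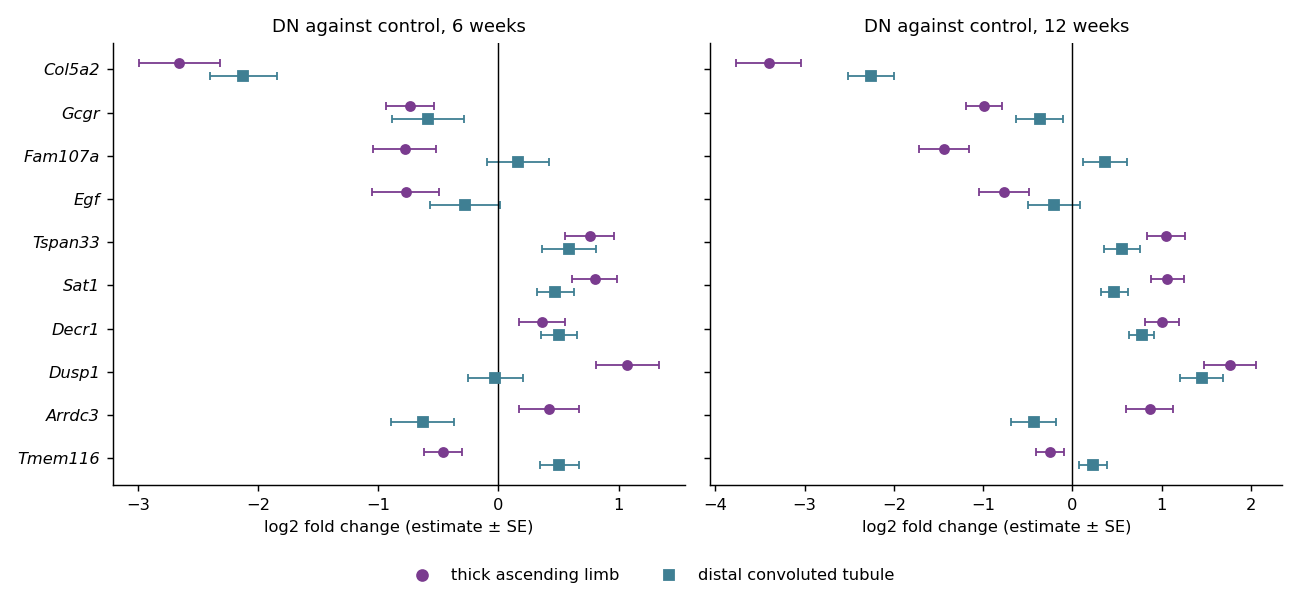
Log2 fold change of DN against control with its standard error at 6 weeks (left) and 12 weeks (right) in thick ascending limb cells (circles) and distal convoluted tubule cells (squares). Col5a2 lies far below 0 in both segments, while Arrdc3 lies above 0 in thick ascending limb cells and below 0 in distal convoluted tubule cells.

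The 2 mice of a group differed in a regular way in several, but not all, of the genes listed as marks of position along the thick ascending limb. Cldn10 and Ptger3 are higher in the medullary part of the segment, and Cldn16 and Kcnj10 in the cortical part. The library numbered 1 had more Cldn10 in 8 of 8 pairs, at 1545 to 2066 CPM against 645 to 1218 CPM, and more Fxyd2, the gamma subunit of the sodium pump, in 8 of 8, at 5653 to 9103 CPM against 2191 to 4467 CPM. It had less Cldn16 in 8 of 8, at 65.9 to 86.4 CPM against 81.7 to 150 CPM, less Kcnj10 in 8 of 8 and less Casr in 8 of 8, at 19.4 to 40.8 CPM against 47.3 to 104 CPM. Ptger3 was higher in 7 of 8 and the number of thick ascending limb cells in 7 of 8. Tmem207, also listed as cortical, did not go with Cldn16 and Kcnj10. It was higher in the library numbered 1 in 5 of 8 pairs, at 71.1 to 149 CPM against 52.4 to 146 CPM. The share of all tested genes that divide by number in every pair is not given here. Umod showed no such division, being higher in the library numbered 1 in 5 of 8 pairs, while Egf was lower in 8 of 8. The labels do not say what the numbers stand for.

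**Figure D5:**
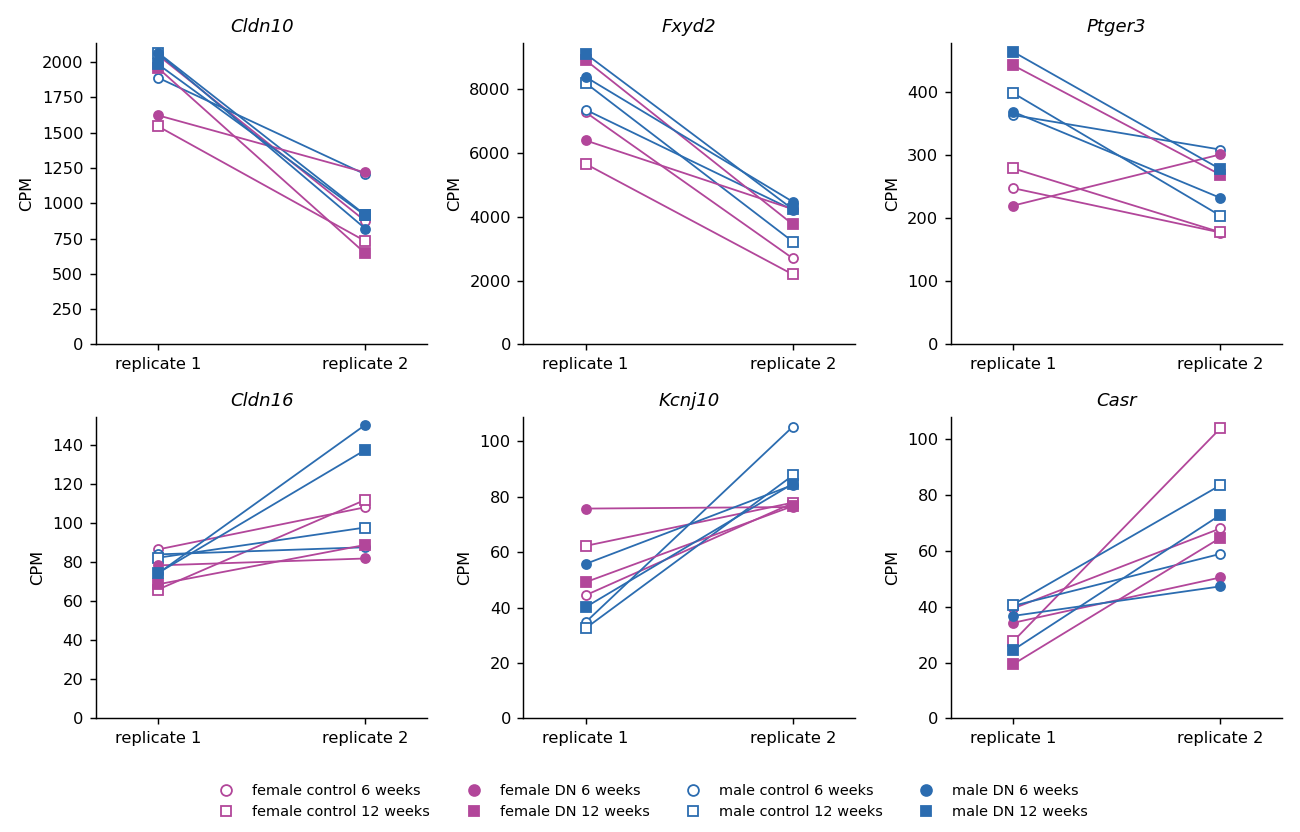
Level in CPM of 6 genes in the libraries numbered 1 and 2 of each of the 8 groups, joined by a line for each group (colour for sex, filled for DN, squares for 12 weeks). Cldn10 and Fxyd2 are higher in the library numbered 1 in every group, and Cldn16, Kcnj10 and Casr are lower.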

How the data were processed

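Kidney cell suspensions enriched for glomeruli from 16 mice were profiled by droplet 3′ RNA-seq. The deposited values are raw UMI counts per gene and barcode, which the authors made with Cell Ranger 3.0.2 on mm10, with 1 matrix per library and barcodes called as cells by that tool. Counts were summed over the thick ascending limb cells of each library and tested with edgeR 4.0.16 in R 4.3.3 (TMM factors, low counts filtered, quasi-likelihood test, residual spread shared by all 16 libraries). The model held genotype, sex and age and the chemistry batch, which was inferred from shared barcode lists. Fold changes are given with standard errors on the log2 scale, and p-values were adjusted by the Benjamini-Hochberg method. Shares of cells were tested by exact permutation of genotype within sex and age.

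The titles give replicates 1 and 2 in each group. Same-numbered DN and control libraries deviated together from their group means, with 4 correlations of 0.207 to 0.553, 1 for each sex and age since the deviations of 2 libraries mirror each other, all over 0.1, so a fit with this number as a block is printed where it changes a call. In females the number coincides with the chemistry batch. The alternatives were DESeq2 1.42.0, other size factors, no filter on low counts, no chemistry term, the 12 deeper libraries, other rules for the cells, barcodes marked by Scrublet (scanpy 1.11.5) left out, and each library left out in turn. Scrublet marked 2.247% of the kept barcodes and 0.8775% of the thick ascending limb cells, and these were kept. On simulated data for DN against control at 12 weeks, with 8124 genes, 10.4%, 66.7% and 97.0% of genes changed 1.5, 2 and 4 times were recovered without the block. With the block 26.9%, 79.4% and 97.0% were recovered. False calls were 2 of 115 without the block and 11 of 143 with it. The simulation made part of the spread common to the libraries of a replicate pair. A gain with the block was thus built in, and it cannot show whether the block suits the real libraries. Summed counts per library were 446477 to 4528959, and replicates of a group differed by more than sampling noise (chi-square per degree of freedom 4.71 to 18.2). Named genes were, for each comparison, the 10 called genes per direction with the lowest p and a mean of at least 20 CPM in either group, without genes that have only a clone or predicted name. To these were added, for each list by role, the called genes and those with the highest levels, and the called members of every other list. Genes named beyond this rule were chosen after their values were seen. The members, gene lists and tests were chosen with earlier results of these data known. Some genes that met these rules are not reported here.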

Additional observations from a re-analysis of the deposited data

Results flagged for a closer look

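In 88 groups of 4 libraries a test for a single outlying library was made, which marks about 1 group in 20 by chance, and 6 were marked. The share of thick ascending limb cells was 0.834% in DN male 6 weeks replicate 2, against 3.34% to 3.84% in the other DN libraries of that age. It was 5.65% in control female 12 weeks replicate 1, against 1.47% to 2.06% in the others. Cldn16 was at 108 CPM in control female 6 weeks replicate 2, against 83.8 to 87.5 CPM, and at 150 CPM in DN male 6 weeks replicate 2, a library with 41 thick ascending limb cells, against 74.1 to 81.7 CPM. Egf was at 3148 CPM in control male 12 weeks replicate 1, against 6060 to 6623 CPM. Gcgr was at 63.5 CPM in DN female 6 weeks replicate 1, against 31.0 to 33.4 CPM.

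The DN effect differed between thick ascending limb and distal convoluted tubule cells of the same libraries, by the test of the difference itself, in 4 genes. The differences on the log2 scale were -0.96 for Tmem116 and 2.70 for Pde10a at 6 weeks, and -1.44 for 1110019B22Rik and 1.304 for Arrdc3 at 12 weeks. Pde10a and 1110019B22Rik lie outside the rule for named genes.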

How the results depend on the processing

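The calls of DN against control rest on few genes and few cells, and the cause of the changes below was not tested. At 6 and 12 weeks, the 7 and 16 calls became 106 and 149 with the replicate block, 2 and 1 without the chemistry term, 3 and 3 in the 12 libraries of the larger batch, 104 and 192 with no filter on low counts, 1 and 46 with at most 20% mitochondrial UMIs (279 cells), and 13 and 84 in libraries with at least 50 cells, an alternative chosen after seeing the data. The calls were 10 and 24 with DESeq2. Libraries with fewer than 10 of the 279 cells were left out of the fit of these cells. There, and with at least 50 cells, DN at 12 weeks held only the libraries numbered 1. Those numbered 2 had 7 (female) and 8 (male) of the 279 cells, and 46 thick ascending limb cells each. The block also moved the calls against the distal convoluted tubule from 2 to 42 at 6 weeks and from 2 to 48 at 12 weeks. Among the genes named, it also gave calls to Arrdc3 at 12 weeks (adjusted p = 0.00242) and to Acsm2, Cyp4b1, Pde10a and Fbp1 at 6 weeks (adjusted p = 0.00257, 0.0468, 0.0468 and 0.0499).

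The DN effect by age had 0 calls, and 2 with DESeq2, 1 with at most 20% mitochondrial UMIs and 27 with no filter. The effect by sex had 0, and 1 without the barcodes marked by Scrublet and 15 with no filter. Age in control had 0, and 7 with DESeq2, 2 with at most 20% mitochondrial UMIs, 33 with no filter and 7 with at least 50 cells. Age in DN had 1, and 8 with DESeq2, 40 with no filter and 0 in the 12 libraries, without the barcodes marked by Scrublet, with 1 UMI of other lineages tolerated, with at most 20% mitochondrial UMIs and without the chemistry term. Sex had 57, and 4 with at most 20% mitochondrial UMIs, 17 without the chemistry term, 489 with no filter and 229 with at least 50 cells. The difference in the share of Cldn16-positive cells turned to -0.140 percentage points at 2000 UMIs per cell.

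With 1 library left out in turn, calls ranged from 3 to 12 at 6 weeks, from 2 to 46 at 12 weeks, from 0 to 1 for the effect by age, from 0 to 1 for the effect by sex, from 0 to 1 for age in control, from 0 to 1 for age in DN, from 19 to 348 for sex, and against the distal convoluted tubule from 0 to 5 at 6 weeks and from 1 to 11 at 12 weeks. The difference in share ranged from -1.38 to -0.088 percentage points and that in Cldn16-positive cells from -0.0736, without DN male 12 weeks replicate 2, to 2.51. At 6 weeks the lowest count came without DN female 6 weeks replicate 2 or control male 6 weeks replicate 1, with 3 calls each.

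Over the results for single genes, 429 kept their side of the threshold under an alternative, 146 lost the call, 7 gained one and 0 changed sign. Most were lost without the chemistry term (14 of 21), in the 12 libraries (13 of 19), and without DN female 12 weeks replicate 1, DN male 12 weeks replicate 1 or control male 12 weeks replicate 2 (13 of 21 each). Col5a2 at both ages and Ugt2b38 at 6 weeks kept their calls under all alternatives run. At 12 weeks, with at most 20% mitochondrial UMIs, the log2 fold change of Egf was -2.37 and passed. In that fit DN of this age held only libraries numbered 1, and control held both numbers. Over all thick ascending limb cells, Egf was lower in the library numbered 1 in each of the 8 pairs. With 41 to 390 cells in a library, a gene at a few CPM rests on few UMIs, and a miss of the threshold does not show that levels were equal.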

Other observations

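The ob mutation lies in Lep on chromosome 6, at 29060220 to 29073877 in GRCm38. Of the 21 genes called between DN and control at either age, 5 lie on chromosome 6. These are Tspan33, 0.634 Mb from Lep, Aoc1 at 19.8 Mb, Fxyd4 at 88.9 Mb, Slc6a12 at 92.3 Mb and Kap at 104.8 Mb. The 416 tested genes of chromosome 6 had a call in 1.20% and all 8412 tested genes in 0.25%. With the replicate block these shares were 3.85% and 2.43%, and chromosome 13 had 4.35%. Within 20 Mb of Lep 100 genes were tested, of which Tspan33 and Aoc1 were called (2%). With the replicate block 6 of the 100 were called at either age (6%), against 2.43% of all tested genes. These were Tspan33, Aoc1, Cttnbp2, Podxl, Tbxas1 and Ahcyl2. Whether the mutant mice carry other alleles around Lep was not tested.

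Between libraries, Pth1r, the parathyroid hormone receptor, was lower in those numbered 1 in 7 of 8 pairs, at 87.9 to 189 CPM against 137 to 477 CPM in those numbered 2.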
